A study of Danio rerio with 8 samples.

Results

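The genes described here encode the machinery that copies DNA and supplies its building blocks: the origin recognition complex, the licensing factors, the MCM helicase and the proteins that fire it, the replicative polymerases and primase, the sliding clamp and its loader, the proteins that protect and join new strands, and the enzymes of deoxynucleotide synthesis. They were chosen by symbol, not by a cut on any measured value, though earlier results of these data were known. The set held 47 zebrafish symbols. Of these, 40 matched at least 1 row among the 28272 rows of the deposited count table. They gave 42 rows, because mcm6 and rrm2 each name 2 rows. The remaining 7 symbols (mcm2, mcm7, orc2, orc4, pole2, tk1 and dut) matched no row and were not analysed here. All 42 rows passed the filter on low counts.

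DNA replication begins at origins bound by the origin recognition complex. Before S phase, Cdc6 and Cdt1 load the ring-shaped MCM helicase there, and geminin, encoded by gmnn, binds Cdt1 to prevent a further round of loading. In S phase the Cdc7 kinase, Cdc45 and the GINS complex turn the ring into a moving helicase, and primase and the polymerases alpha, delta and epsilon follow it. PCNA is the clamp that holds polymerases on DNA, RFC loads it, RPA coats exposed strands, and Fen1 and Lig1 finish the lagging strand. Many of these genes are targets of E2F transcription factors in vertebrates, and their transcripts are known to mark dividing cells. Adult melanocytes are held to divide rarely, while melanoma cells proliferate.

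The study compared gene expression between cells that its labels call scale melanocytes (4 libraries) and melanoma (4 libraries) of zebrafish. All were adults of a strain in which the mitfa promoter drives both human BRAF bearing the V600E change and EGFP, on a background with the p53 allele zdf1 and the alb allele b4. Both groups share these alleles and the oncogene. Unpigmented cells positive for EGFP had been sorted, that is, for activity of the mitfa promoter. Whether libraries came from separate fish is not stated, so the p-values cover only the spread from library to library, in part perhaps technical. Values for scale libraries are given in the order replicate 1, replicate 2, then the first and the second of the columns that both carry the name of replicate 3, and those for melanoma in the order of replicates 1 to 4. Levels are counts per 1e6 of a library size adjusted by TMM (CPM). A sum of CPM is therefore not a share of reads: all genes tested summed to between 598712 and 2140760 CPM in a library. Levels compare libraries for 1 gene, not genes with each other, since transcript lengths were not used. Changes are log2 fold changes of melanoma against scale libraries ± SE, tested by quasi-likelihood in edgeR with p adjusted after Benjamini and Hochberg over 26749 genes and a threshold of 0.05.

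Library totals were 86888494 to 100270657 counts. The scale libraries went against their label on markers: 14 epidermal markers summed to between 55129 and 113332 CPM in them and to between 58.2 and 337 CPM in melanoma, while 14 melanophore markers summed to 94.9 to 139 CPM against 2132 to 12283 CPM. All 14 epidermal rows were lower in melanoma and 11 of 14 melanophore rows higher, and no row of either list was at 0 in a whole group. The sets are therefore called scale libraries and melanoma, and in such bulk samples fewer cells of a type and less RNA per cell cannot be told apart. Scale replicate 2 and the second column of replicate 3 stood apart in complexity, with 22836 and 22537 genes at 10 or more counts against 26377 and 26448 in the other scale libraries. They are called the 2 less complex libraries.

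Replication genes were higher in melanoma. Of the 42 rows, 33 rose, 1 fell and 8 did not pass. Among all 26749 genes tested, 21.7% were called higher, 15.2% lower and 36.8% either way. Over the 42 rows the median log2 change was 2.57, where that of all genes was 0.05, and 28 rows rose at least 4-fold against 12.6% of all genes. For 22 rows each melanoma library lay above every scale library, and for 1 row each lay below, against 21.7% and 15.2% of all genes (36.9% together). The rows took between 0.0178% and 0.0242% of the counts of each scale library, 0.0605% of those of melanoma replicate 1, and 0.202%, 0.350% and 0.278% of those of melanoma replicates 2, 3 and 4. These raw shares do not use TMM. After TMM the rows summed to 248 to 384 CPM in the scale libraries. Melanoma replicate 1, at 362 CPM, lay within that range, and replicates 2, 3 and 4 lay above it, at 1481, 2394 and 1756 CPM. Abundant rows weigh most in such a sum. The median over the rows was 6.14 CPM in melanoma replicate 1, above the 2.85 to 3.99 CPM of the scale libraries. The number of rows that rose was 31 with RLE scaling, 27 with upper quartile scaling, 38 with total counts and 26 with the replicate number as a block. Calls over all genes moved too: in these fits 5058, 4041, 10873 and 4116 genes were higher, against 5799 in the main fit. The median of all genes moved to -0.39 with upper quartile scaling and to 1.17 with total counts, and that of the 42 rows to 2.07 and 3.71.

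**Figure D1:**
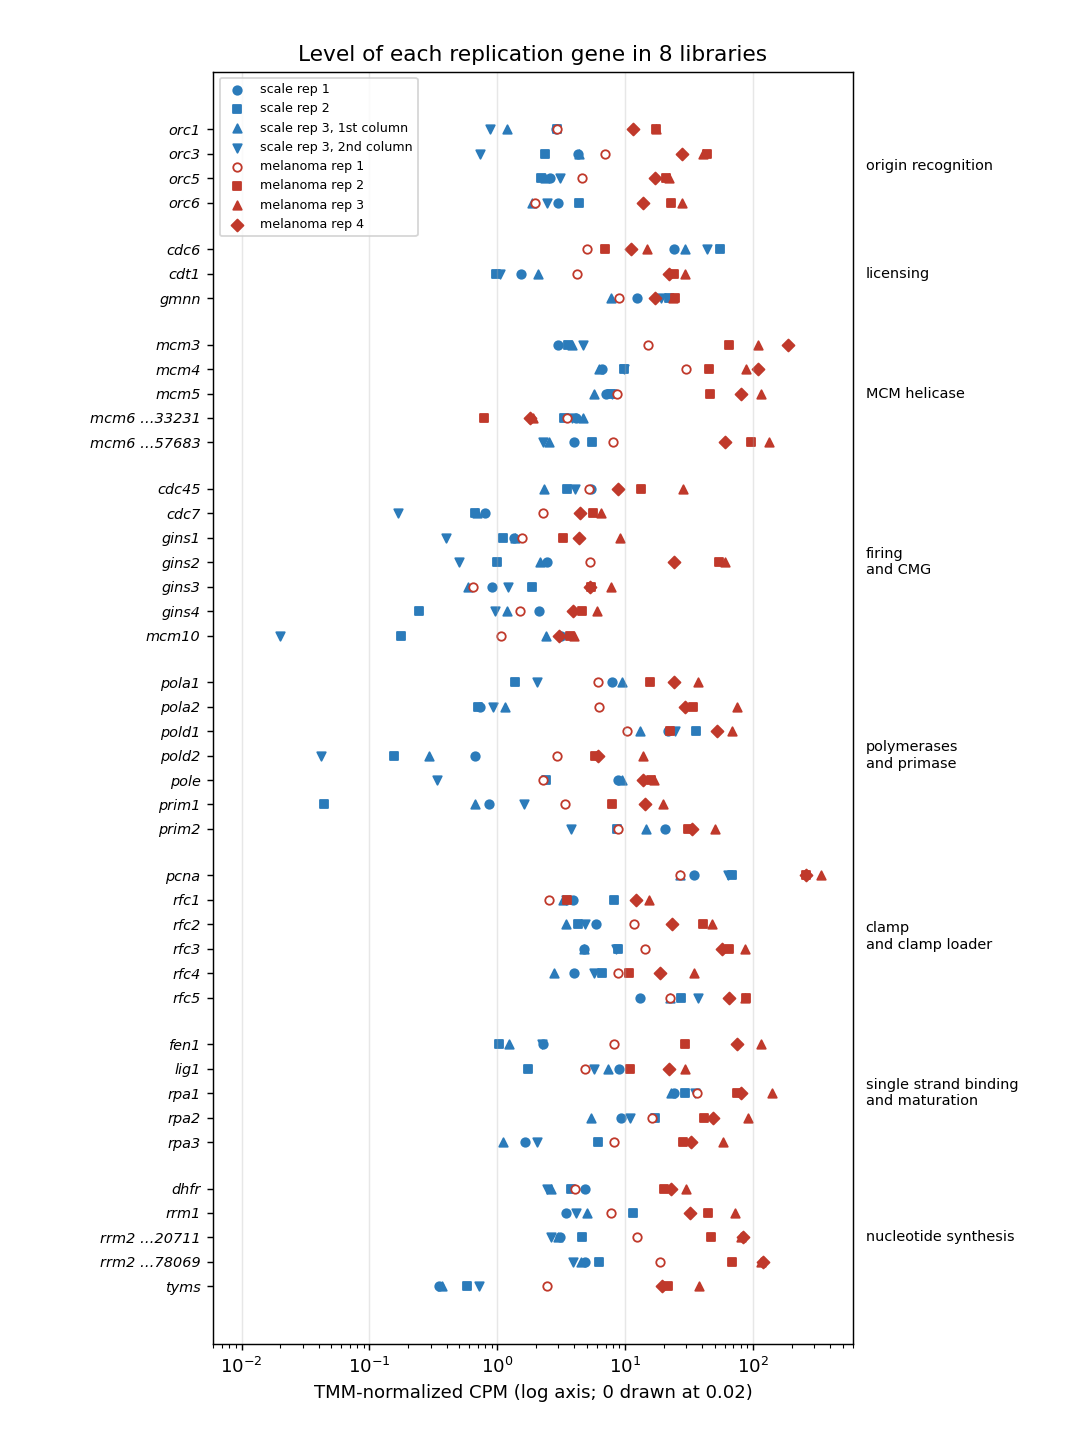
Level of each of the 42 rows in every library, as TMM-normalized CPM on a log axis, grouped by role, with blue marks for scale libraries and red for melanoma. Open red circles are melanoma replicate 1, which lies left of the other melanoma libraries in 41 rows. Rows that share a symbol carry the end of their identifier.

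The 4 measured subunits of the origin recognition complex all rose, by log2 2.50 to 3.34. The subunit gene orc5 (ENSDARG00000021579) was at 2.56, 2.18, 2.37 and 3.08 CPM in the scale libraries and 4.55, 20.8, 21.8 and 17.1 CPM in melanoma. The groups did not overlap (log2 2.66 ± 0.49, adjusted p = 0.00136). Next, orc3 (ENSDARG00000008805) was at 4.27, 2.36, 4.31 and 0.734 CPM against 6.98, 43.3, 40.4 and 27.8 CPM. The second column of scale replicate 3 was the lowest library, and again the groups did not overlap (log2 3.34 ± 0.66, adjusted p = 0.00212). Without the 2 less complex libraries the change of orc3 was 2.74. Changes of 2.64 for orc1, the subunit whose level cycles with division in mammals, and 2.50 for orc6 passed as well (adjusted p = 0.00561 and 0.0108). In both, melanoma replicate 1 lay within the range of the scale libraries. The call of orc6 was lost with limma-voom (adjusted p = 0.0892), with the block (0.0636) and without the less complex libraries (0.052).

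Licensing factors moved in different directions. The loader gene cdt1 (ENSDARG00000051854) was at 1.52, 0.978, 2.09 and 1.05 CPM in the scale libraries and 4.19, 24, 29.2 and 22.1 CPM in melanoma. Each melanoma library lay above each scale library, a 14.1-fold rise (log2 3.81 ± 0.59, adjusted p = 0.000472). The other loader gene, cdc6 (ENSDARG00000009942), ran the opposite way, at 24, 55.4, 29.2 and 43.3 CPM against 4.97, 6.92, 14.8 and 11.1 CPM. Its highest melanoma library lay below its lowest scale library (log2 -2.01 ± 0.44, adjusted p = 0.00371). This fall was not called with total counts (-0.74, adjusted p = 0.131), and it was -1.36 without the 2 less complex libraries and melanoma replicate 1. Geminin, gmnn (ENSDARG00000035957), which binds the protein of cdt1, was at 12.4, 22, 7.72 and 19.1 CPM against 8.95, 24.2, 23.6 and 17.2 CPM. Those groups overlapped (log2 0.27 ± 0.43, adjusted p = 0.642), and the sign turned with upper quartile scaling (-0.20), without scale replicate 1 (-0.041) and without the first column of replicate 3 (-0.16), while total counts called it higher (1.53, adjusted p = 0.00495).

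Ratios of raw counts within a library do not depend on scaling. For each cdt1 read there were 14.0 to 56.7 reads of cdc6 in the scale libraries, and 0.288 to 1.19 in melanoma. Reads of gmnn per cdt1 read ranged from 3.70 to 22.5 in scale libraries and from 0.779 to 2.14 in melanoma. Reads of cdc6 per orc1 read were 8.39 to 49.2 in scale libraries and 0.399 to 1.70 in melanoma. In none of these 3 ratios did the groups overlap, with melanoma replicate 1 the nearest to the scale libraries in each. For cdc6 per cdt1 read the separation had to follow, since cdc6 was lower and cdt1 higher in melanoma without overlap. These pairs were chosen after the values were seen and are given without a test.

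**Figure D2:**
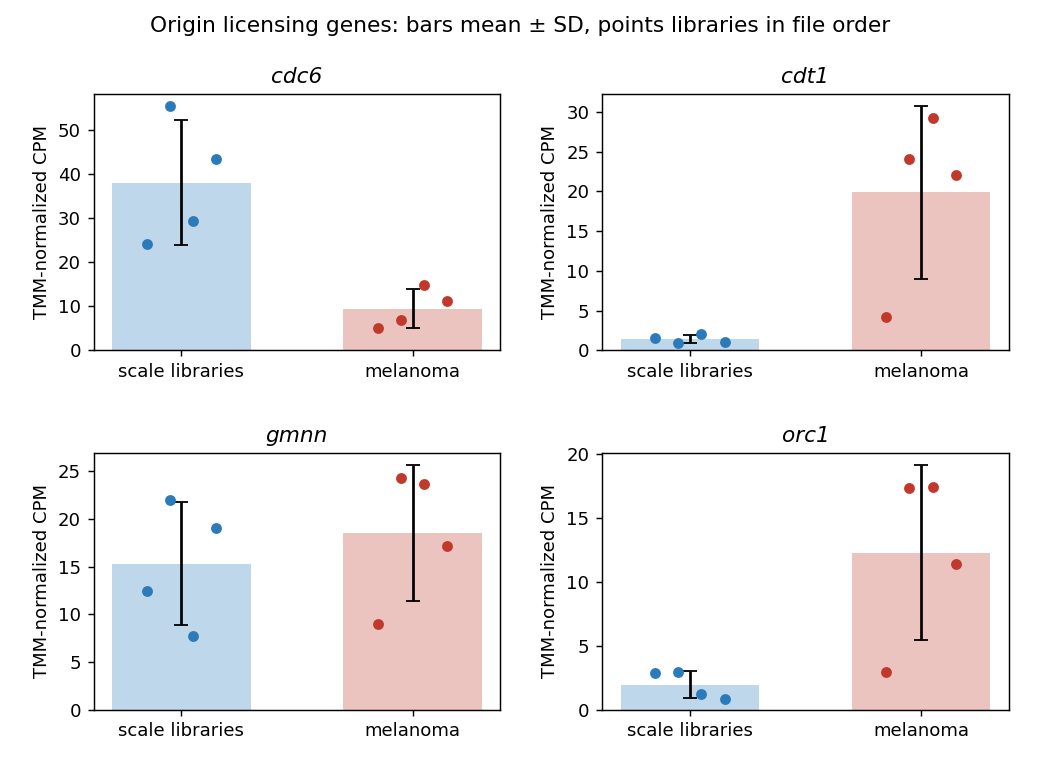
TMM-normalized CPM of cdc6, cdt1, gmnn and orc1, with bars for the mean, error bars for the SD over n = 4 libraries and points for libraries. In melanoma cdc6 lies below every scale library and cdt1 above, while gmnn overlaps.

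Of the MCM helicase ring, 4 of 5 measured rows rose. The subunit gene mcm3 (ENSDARG00000024204) was at 2.97, 3.53, 3.82 and 4.66 CPM in the scale libraries and 15, 64.8, 109 and 187 CPM in melanoma. Melanoma libraries differed widely but all lay above the scale libraries, a 25.1-fold rise (log2 4.65 ± 0.67, adjusted p = 0.000299). For mcm4 (ENSDARG00000040041) the values were 6.61, 9.82, 6.25 and 9.77 CPM and 29.7, 44.8, 87.1 and 109.5 CPM. Its melanoma libraries were closer to each other, and the groups did not overlap (log2 3.06 ± 0.46, adjusted p = 0.000408). The gene mcm5 rose by 3.14 (adjusted p = 0.00225).

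Both rows named mcm6 showed unlike values. Row ENSDARG00000057683 was at 3.99, 5.49, 2.53 and 2.29 CPM against 8.03, 96.6, 133 and 59.8 CPM, without overlap (log2 4.38 ± 0.73, adjusted p = 0.00072). Row ENSDARG00000033231 was at 4.11, 3.29, 4.63 and 3.82 CPM against 3.48, 0.78, 1.9 and 1.79 CPM (log2 -0.99 ± 0.50, adjusted p = 0.141). The 3 melanoma libraries other than replicate 1 lay below every scale library in this row, and replicate 1 within their range. RefSeq (assembly GRCz12tu) lists both mcm6 and mcm6l in zebrafish, and the files do not say which row is which. Reads of the second row per read of the first were 0.599 to 1.83 in scale libraries, 0.434 in melanoma replicate 1 and 0.00808 to 0.0300 in the other melanoma libraries. Total counts turned the sign of the second row (0.16), and leaving out the 2 less complex libraries and melanoma replicate 1 made it a called fall (-1.63, adjusted p = 0.0386). Similar copies may share reads, so values of both rows are uncertain to that extent.

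Among the genes that fire the helicase, 6 of 7 rose. The GINS subunit gene gins2 (ENSDARG00000002304) was at 2.44, 1.0, 2.15 and 0.503 CPM in the scale libraries and 5.28, 53.5, 60.2 and 24.1 CPM in melanoma. Its groups did not overlap (log2 4.54 ± 0.77, adjusted p = 0.000811). The change was 3.90 when the 2 less complex libraries were left out. The kinase gene cdc7 (ENSDARG00000023584) was low throughout, at 0.80, 0.667, 0.696 and 0.168 CPM against 2.26, 5.54, 6.45 and 4.44 CPM. Again the groups did not overlap (log2 2.99 ± 0.60, adjusted p = 0.00228). In mcm10 (ENSDARG00000045815), whose product helps start the helicase, the scale libraries ranged from 0 counts to above melanoma replicate 1. They were at 3.13, 0.178, 2.42 and 0 CPM against 1.06, 3.72, 3.95 and 3.03 CPM (log2 1.03 ± 1.08, adjusted p = 0.479). The library at 0 allows up to 0.0629 CPM (3 counts, for counting error only), and without the 2 less complex libraries the change of mcm10 was 0.03.

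The helicase partner gene cdc45 and the other GINS subunit genes also rose. Changes were 1.86 for cdc45, 2.10 for gins1, 2.07 for gins3 and 1.82 for gins4 (adjusted p = 0.0159, 0.0204, 0.0338 and 0.0473). Of these, gins1 alone had no overlap between groups. All 4 calls were lost with upper quartile scaling, without the 2 less complex libraries and with the block, where adjusted p was 0.0548, 0.101, 0.147 and 0.115, and those of the 3 GINS genes also with limma-voom (0.0567, 0.157 and 0.0587). Left out 1 at a time, scale replicate 2, the first column of replicate 3 and melanoma replicate 3 each ended the call of cdc45 (0.0527, 0.0698 and 0.0673, the last with a change of 1.26), and melanoma replicate 3 that of gins1 (0.087). The call of gins3 held without scale replicate 2 or melanoma replicate 1 and was lost without any of the other 6 libraries (adjusted p up to 0.127), while that of gins4 held without scale replicate 1 or melanoma replicate 1 and was lost without any of the other 6 (up to 0.12).

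Polymerase and primase genes did not all rise: of 7 rows 4 rose and 3 did not pass. The second subunit of polymerase alpha, pola2 (ENSDARG00000015070), was at 0.733, 0.711, 1.15 and 0.923 CPM in the scale libraries and 6.2, 33.6, 75.1 and 29.2 CPM in melanoma. This 40.9-fold rise had no overlap between groups (log2 5.35 ± 0.69, adjusted p = 0.000154), and it was 4.71 without melanoma replicate 3. The catalytic subunit gene pola1 rose by 2.0 (adjusted p = 0.0372), with melanoma replicate 1 inside the range of the scale libraries. That call was lost when scale replicate 1, scale replicate 2, the second column of replicate 3, melanoma replicate 3 or melanoma replicate 4 was left out (adjusted p up to 0.106), with upper quartile scaling (0.0967) and with the block (0.0873). The call was also lost with the filter of 5 CPM in 4 libraries and without the 2 less complex libraries, where the change was 1.19.

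For polymerase delta, the accessory subunit gene pold2 (ENSDARG00000095046) was at 0.667, 0.156, 0.293 and 0.0419 CPM in the scale libraries and 2.93, 5.82, 13.7 and 6.14 CPM in melanoma. The groups did not overlap (log2 4.59 ± 0.80, adjusted p = 0.000983). It stood at 5.24 without scale replicate 1 and at 3.83 with the less complex libraries left out, which had 7 and 2 reads of it. The catalytic subunit gene pold1 (ENSDARG00000027689) was at 21.5, 36, 13.1 and 24.6 CPM against 10.3, 22.2, 68 and 51.9 CPM and did not pass (log2 0.68 ± 0.54, adjusted p = 0.343). Melanoma replicate 1 was its lowest library of all 8. The catalytic subunit gene of polymerase epsilon, pole (ENSDARG00000058533), was at 8.76, 2.38, 9.45 and 0.336 CPM against 2.26, 15.7, 16.7 and 13.7 CPM (log2 1.21 ± 0.83, adjusted p = 0.274). The 2 less complex libraries were low for pole, and without them its change was 0.35.

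Of the primase genes prim1 rose and prim2 did not pass. The catalytic subunit gene prim1 (ENSDARG00000040163) rose by 3.82 (adjusted p = 0.00398), or by 3.21 without scale replicate 2, where it had 2 reads. The regulatory subunit gene prim2 (ENSDARG00000052721) was at 20.3, 8.65, 14.6 and 3.75 CPM against 8.83, 30.9, 49.9 and 33.2 CPM (log2 1.38 ± 0.58, adjusted p = 0.0808). It passed without melanoma replicate 1 (1.69, adjusted p = 0.0221) and with total counts (2.33, adjusted p = 0.0152). Reads of pola2 per pola1 read were 0.0931 to 0.516 in scale libraries and 1.02 to 2.14 in melanoma. Reads of pold2 per pold1 read were 0.00170 to 0.0311 in scale libraries and 0.118 to 0.283 in melanoma. Neither ratio overlapped between groups. For prim1 per prim2 read the ranges, 0.00514 to 0.430 and 0.254 to 0.430, did overlap. These pairs too were chosen with values known and carry no test.

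**Figure D3:**
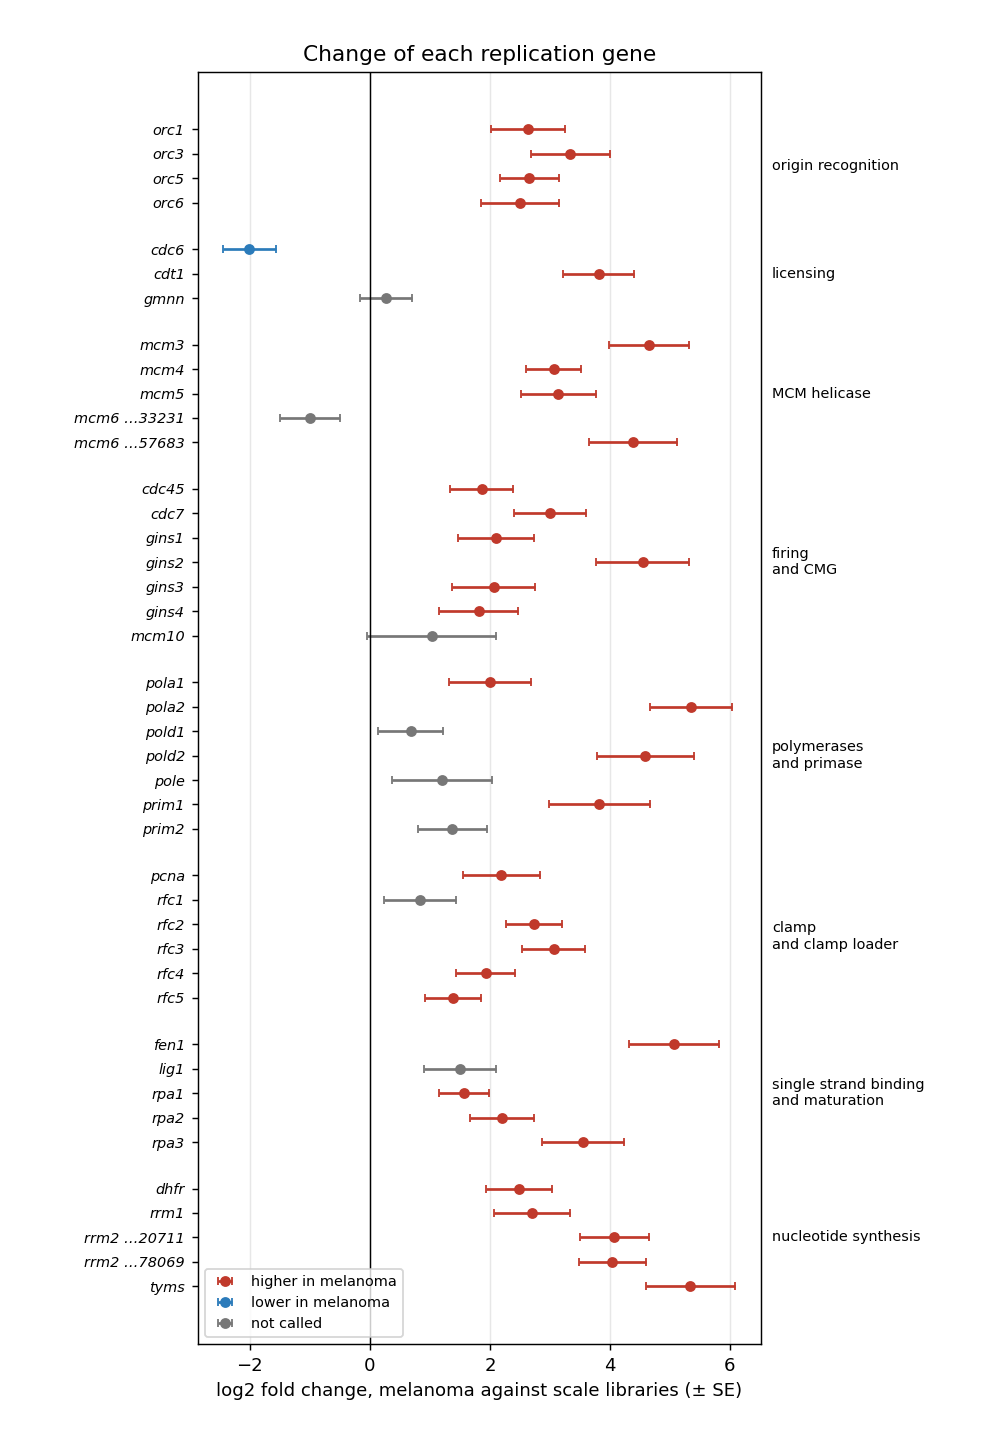
log2 fold change ± SE of each of the 42 rows in melanoma relative to scale libraries, from edgeR's quasi-likelihood fit with n = 4 libraries per group. The 33 red rows were called higher, cdc6 in blue lower, and the 8 grey rows were not called.

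The clamp gene pcna (ENSDARG00000054155) rose, though melanoma libraries split. It was at 34.2, 68.7, 26.9 and 63.1 CPM in the scale libraries and 27, 257, 336 and 259.6 CPM in melanoma. Replicate 1 lay among the scale libraries, and the other melanoma libraries far above (log2 2.19 ± 0.64, adjusted p = 0.0186). The call was lost without scale replicate 1 (adjusted p = 0.0883), without the first column of replicate 3 (0.084), with limma-voom (0.054) and with the block (0.0785). Without the 2 less complex libraries the change was 2.78.

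Of 5 clamp loader genes 4 rose. The small subunit gene rfc2 (ENSDARG00000014274) was at 5.89, 4.29, 3.41 and 4.82 CPM against 11.7, 40.2, 47.7 and 23.1 CPM. The groups did not overlap (log2 2.74 ± 0.46, adjusted p = 0.000822). For rfc3 (ENSDARG00000055969) the libraries were at 4.72, 8.71, 4.74 and 8.47 CPM and 14.2, 64.8, 86.2 and 57 CPM, again without overlap (log2 3.06 ± 0.53, adjusted p = 0.000907). The large subunit gene rfc1 (ENSDARG00000054799) did not pass, at 3.89, 8.22, 3.27 and 3.44 CPM against 2.54, 3.52, 15.4 and 12.2 CPM (log2 0.84 ± 0.60, adjusted p = 0.29). Its melanoma replicate 1 lay below the scale libraries, replicate 2 among them and replicates 3 and 4 above, and total counts called it higher (2.09, adjusted p = 0.0146). The genes rfc4 and rfc5 rose by 1.93 and 1.39 (adjusted p = 0.0096 and 0.0358). The call of rfc5 was lost with RLE (adjusted p = 0.0845), upper quartile scaling (0.118), the authors' size factors (0.0832) and DESeq2 (0.0598), and without any library other than the second column of scale replicate 3 and melanoma replicate 1 (up to 0.182). That of rfc4 missed the threshold when scale replicate 1 (0.0514) or the first column of replicate 3 (0.0524) was left out.

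Genes that protect and finish new strands rose in 4 of 5 cases. The flap endonuclease gene fen1 (ENSDARG00000011404), which trims lagging strand fragments, was at 2.25, 1.02, 1.23 and 2.24 CPM in the scale libraries and 8.21, 29.1, 114 and 75.3 CPM in melanoma. This 33.5-fold rise had no overlap (log2 5.07 ± 0.75, adjusted p = 0.000372), and it was 4.48 without melanoma replicate 3. The smallest subunit gene of the RPA complex, rpa3 (ENSDARG00000002613), was at 1.65, 6.11, 1.1 and 2.06 CPM against 8.21, 28.5, 58 and 32.7 CPM. Its groups did not overlap (log2 3.55 ± 0.68, adjusted p = 0.00181), and the change was 4.46 without the 2 less complex libraries. The gene for the ligase that joins fragments, lig1 (ENSDARG00000060041), was at 8.91, 1.73, 7.31 and 5.64 CPM against 4.85, 10.9, 29.4 and 21.9 CPM and did not pass (log2 1.51 ± 0.60, adjusted p = 0.0684). It passed with DESeq2 (1.39, adjusted p = 0.0484), with total counts (2.49, 0.0135) and without melanoma replicate 1 (1.82, 0.0212). The larger RPA subunit genes rpa1 and rpa2 rose by 1.57 and 2.20 (adjusted p = 0.0111 and 0.00665), and rpa1 did not pass when scale replicate 1 (0.0678) or the first column of replicate 3 (0.0692) was left out.

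All 5 measured rows of nucleotide synthesis rose, by log2 2.48 to 5.34. Thymidylate synthase, tyms (ENSDARG00000042894), which makes the thymine nucleotide, was at 0.347, 0.578, 0.366 and 0.713 CPM in the scale libraries and 2.43, 21.5, 37.3 and 19.3 CPM in melanoma. This 40.5-fold rise had no overlap between groups (log2 5.34 ± 0.75, adjusted p = 0.000256). The 2 rows named rrm2, for the small subunit of ribonucleotide reductase, were close to each other. Row ENSDARG00000078069 was at 4.84, 6.2, 4.53 and 3.9 CPM against 18.6, 68.2, 114 and 119 CPM, without overlap (log2 4.04 ± 0.55, adjusted p = 0.000227), and row ENSDARG00000020711 changed by 4.07 (adjusted p = 0.000258). Reads of the former per read of the latter were 1.36 to 1.56 in all 8 libraries. Whether the 2 rows share reads was not tested. The large subunit gene rrm1 and the folate reductase gene dhfr rose by 2.70 and 2.48 (adjusted p = 0.00568 and 0.0043). In both, melanoma replicate 1 lay within the scale range. Reads of row ENSDARG00000078069 per rrm1 read were 0.539 to 1.40 in scale libraries and 1.54 to 3.74 in melanoma.

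The melanoma libraries were unlike each other. Replicate 1 was the lowest melanoma library in 41 of the 42 rows, the exception being mcm6 row ENSDARG00000033231, where it was the highest. Among all genes tested it was the lowest in 31.3%, and among genes called higher in 59.7%. Replicate 3 was the highest in 34 rows, against 28.5% of all genes. The mean of the other melanoma libraries was between 0.428 and 12.0 times replicate 1, with a median of 4.48, where the median was 1.15 over all genes and 1.66 over genes called higher. The ratio was 12 for mcm6 row ENSDARG00000057683, 10.9 for orc6, 10.7 for tyms and 10.5 for pcna, but 2.2 for cdc6, 2.41 for rfc4, 2.42 for cdc7 and 2.71 for mcm4. Replicate 1 exceeded every scale library in 22 rows, replicates 2, 3 and 4 in 38, 40 and 38. The share over all genes was not computed for single melanoma libraries, so these counts compare only the libraries with each other. The median of the rows over the mean of the scale libraries was 1.48 in replicate 1 and 6.14, 8.74 and 5.35 in replicates 2, 3 and 4.

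Other summed values also set replicate 1 apart from the other melanoma libraries. The 26 mitosis rows summed to 165 CPM in replicate 1 and to 753, 1497 and 814 CPM in the others. The melanophore markers summed to 2132 CPM there and to 5949, 12283 and 5549 CPM in the others. The largest of these rows, tyrp1 (row ENSDARG00000056151), was at 315 CPM there and at 3394, 6215 and 1796 CPM in the others. Not every row was lowest there, since dct was at 215 CPM in replicate 1 and 110 CPM in replicate 2. The sum of the leukocyte markers (8 rows, cd74a the largest) ran the opposite way, at 2705 CPM in replicate 1 and 1105, 279 and 856 CPM in the others. In the scale libraries this sum was 1554 to 3960 CPM, so replicate 1 lay within their range and the other melanoma libraries below it. Against the scale libraries 2 of these 8 rows rose and 0 fell, and a sum need not stand for each row. Red blood cell markers (5 rows, alas2 the largest) summed to 242 CPM in replicate 1 against 3.22 to 11.1 CPM. No row of these lists was at 0 in all melanoma libraries. The part of other cells in the levels of replication genes was not tested. Without replicate 1, 35 rows rose and 1 fell, where 5822 of all genes rose and 3964 fell. Melanoma then lay above the scale libraries without overlap in 36 rows and below in 2, against 22 and 1 with it. Leaving out a library can only keep or raise such counts, and the share over all genes was not computed for it.

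**Figure D4:**
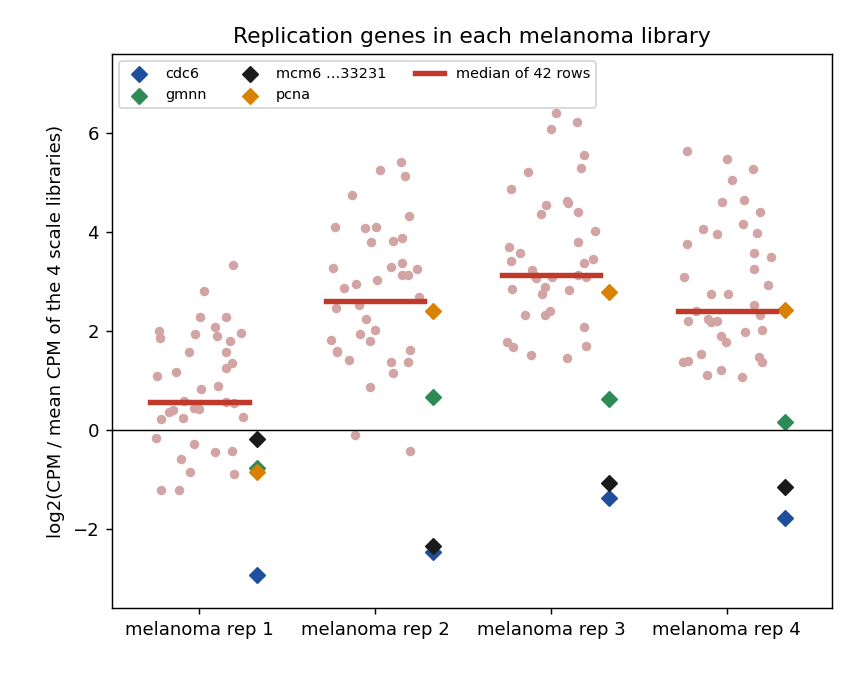
log2 ratio of the CPM of each of the 42 rows in each melanoma library to the mean CPM of the 4 scale libraries; red lines are medians over the rows, and diamonds mark cdc6, gmnn, pcna and mcm6 row ENSDARG00000033231. The medians stand for ratios of 1.48, 6.14, 8.74 and 5.35 in replicates 1 to 4, and cdc6 lies below 0 in all 4.

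The scale libraries also split. In 13 rows both less complex libraries lay below both other scale libraries, among them pola1, prim2, pole, lig1, mcm10, gins2 and orc3, and in 14 rows above, among them pcna, cdc6, gmnn, pold1, rfc3 and mcm4. Over all genes tested these shares were similar, at 34.4% and 27.6%, so the split was not particular to these rows. Without the 2 less complex libraries 27 of the 42 rows rose and 1 fell, where 5000 of all genes rose and 5006 fell. With melanoma replicate 1 left out as well, 33 of the 42 rows rose and 2 fell, where 5698 of all genes rose and 5503 fell. The changes of gins3, rfc3, rfc4, rfc5, rpa2, rrm1 and tyms then stood at 2.97, 3.81, 2.56, 2.10, 2.96, 3.47 and 6.11.

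Other genes of the same processes were taken from 6 further lists. Of 35 other rows for the replisome and licensing, 20 rose and 0 fell, with a median log2 change of 1.77. The ribonuclease subunit gene rnaseh2b, whose enzyme clears RNA from DNA, was at 2.92 ± 0.654 in scale libraries against 21.2 ± 8.75 CPM in melanoma, as mean ± SD with n = 4 (log2 2.86 ± 0.43, adjusted p = 0.000408). The MCM binding protein gene mcmbp was at 8.04 ± 1.44 against 40.0 ± 15.2 CPM (log2 2.32 ± 0.39, adjusted p = 0.000803). With upper quartile scaling 12 of these rows rose and 2 fell, with the block 13 rose, as many as when scale replicate 1 or the first column of replicate 3 was left out. Over all genes, upper quartile scaling called 4041 higher and 5667 lower, against 5799 and 4056 in the main fit. The block called 4116 genes higher, and leaving out scale replicate 1 or that first column gave 3981 and 3986. Of 15 rows for chromatin coupled to replication, 13 rose and 0 fell, with a median of 2.78. That list went beyond chromatin assembly and held, among others, dnmt1, npat, casp8ap2, lmnb1 and esco2. The histone acetyltransferase gene hat1 was at 8.06 ± 1.27 against 72.8 ± 29.3 CPM (log2 3.18 ± 0.41, adjusted p = 0.000166), and the histone chaperone gene nasp at 4.48 ± 1.31 against 83.6 ± 49.9 CPM (log2 4.22 ± 0.56, adjusted p = 0.000179).

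Other pyrimidine and deoxynucleotide genes moved less evenly, with 9 of 23 rows higher, 1 lower and a median of 0.64. The pyrimidine enzyme gene umps was at 4.22 ± 0.66 against 31.7 ± 9.87 CPM (log2 2.91 ± 0.37, adjusted p = 0.000139), and the one-carbon enzyme gene mthfd1 (row ENSDARG00000040492) at 11.7 ± 1.95 against 86.6 ± 53.1 CPM (log2 2.89 ± 0.45, adjusted p = 0.000515). Another mthfd1 row, ENSDARG00000018266, did not pass (log2 0.64 ± 0.75, adjusted p = 0.527). The gene that fell was samhd1, for an enzyme that breaks down deoxynucleotides. It was at 117 ± 38.6 against 11.1 ± 3.23 CPM and its groups did not overlap (log2 -3.39 ± 0.40, adjusted p = 9.83e-05). In this list upper quartile scaling called 6 rows lower and total counts 14 higher, and leaving out the first column of scale replicate 3 gave 5 higher and 3 lower. Without any 1 of scale replicate 1, 2, the second column of replicate 3, melanoma replicate 1 or 2, 2 rows fell. Over all genes, upper quartile scaling called 5667 lower and total counts 10873 higher, against 4056 and 5799 in the main fit. Without the first column of scale replicate 3 these were 3986 higher and 3737 lower. Of 18 purine synthesis rows 11 rose and 1 fell, with a median of 2.0. The gene prps1b, for an enzyme that makes the sugar phosphate on which purines are built, was at 4.63 ± 1.02 against 56.6 ± 28.5 CPM (log2 3.61 ± 0.49, adjusted p = 0.000217) and ppat, of the committed step, at 13.1 ± 2.94 against 123 ± 72.8 CPM (log2 3.23 ± 0.47, adjusted p = 0.000311). The fallen row, impdh2 of guanine nucleotide synthesis, was at 112 ± 10.2 against 56.1 ± 16.5 CPM (log2 -0.99 ± 0.33, adjusted p = 0.0338). Its call was lost with the block (adjusted p = 0.128) and without scale replicate 2 (0.0705), the first (0.0539) or the second (0.0614) column of replicate 3, melanoma replicate 3 (0.093) or 4 (0.112), and its sign turned with total counts (0.18). Without melanoma replicate 2, 2 purine rows fell. Purine synthesis is also known to serve the reflecting crystals of iridophores, whose 7 marker rows summed to 33.4 to 62.7 CPM in scale libraries and 239 to 1264 CPM in melanoma. The part of iridophores in these values was not tested.

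Among regulators of entry into the cell cycle 13 of 35 rows rose and 3 fell, with a median of 1.36. The kinase gene cdk6, which drives that entry, was at 14 ± 6.03 against 191 ± 75.3 CPM (log2 3.77 ± 0.49, adjusted p = 0.000169), and tfdp1 (row ENSDARG00000019293), for a partner of E2F factors, at 5.37 ± 2.39 against 46.6 ± 17.2 CPM (log2 3.12 ± 0.47, adjusted p = 0.000419). Another tfdp1 row, ENSDARG00000016304, did not pass (log2 1.38 ± 0.51, adjusted p = 0.0515). The cell cycle inhibitor gene cdkn1a fell, from 31.3 ± 12.7 to 5.77 ± 2.1 CPM (log2 -2.44 ± 0.42, adjusted p = 0.000897). Inhibitors did not move as 1 group. The genes cdkn2c and cdkn1ca rose by 4.24 ± 0.86 and 1.96 ± 0.56 (adjusted p = 0.00253 and 0.0168). So did rb1 and rbl1, by 1.13 and 1.55 (adjusted p = 0.0301 and 0.00584), all without overlap. Rows matched as cdkn1b and the row cdkn2a/b did not pass. A row named myc (ENSDARG00000007241, sought as myca) fell from 537 ± 147 to 136 ± 115 CPM (log2 -1.98 ± 0.56, adjusted p = 0.0161). Its change was -2.73 without melanoma replicate 2, and its call was lost with total counts (adjusted p = 0.186) or when the less complex libraries were left out (0.0994). Another row matched as myc, ENSDARG00000045695, did not pass (log2 -0.95 ± 0.44, adjusted p = 0.109). Upper quartile scaling called 5 rows of this list lower, and total counts 22 higher and 1 lower. Over all genes, the former called 5667 lower and the latter 10873 higher and 1778 lower. Of 26 mitosis rows 23 rose and 0 fell, with a median of 3.89. The spindle gene tpx2 was at 1.64 ± 0.857 against 64.2 ± 39.5 CPM (log2 5.28 ± 0.64, adjusted p = 0.000115), and the cytokinesis gene prc1 (row ENSDARG00000005993) at 1.53 ± 0.444 against 53.1 ± 33.3 CPM (log2 5.11 ± 0.66, adjusted p = 0.000154). Whether this median differs from that of the replication genes was not tested.

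**Figure D5:**
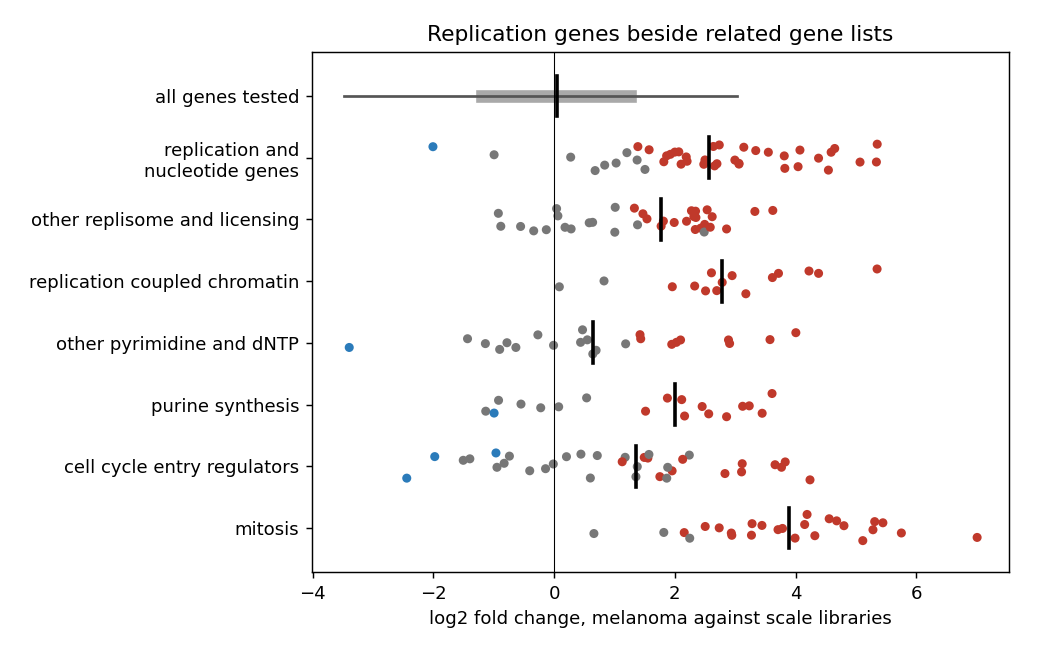
log2 fold change, melanoma against scale libraries, of the 42 replication rows and of the rows of 6 related lists; red points were called higher, blue lower, grey not called, and black bars are medians. For all genes tested the thick bar spans the middle quartiles and the thin line the range from the 5th to the 95th percentile. Medians run from 0.64 for other pyrimidine and deoxynucleotide genes to 3.89 for mitosis, against 2.57 for the 42 rows and 0.05 for all genes.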

How the data were processed

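RNA of the 8 libraries was extracted with Trizol and prepared with Illumina TruSeq kits, per the labels. A deposited count table holds whole reads per gene for 28272 Ensembl identifiers, with no row summing below 40. A deposited table of normalized signal holds these counts times 1 constant per library, set by the authors. The submitters' processing notes name STAR 2.3, HTSeq, DESeq2 and the build Zv9. The annotation and strand setting were not given in the sources used here. Reads of overlapping genes may therefore be shared. Both scale columns named replicate 3 were used, and which of them is replicate 4 is not given. In the block fit both carried number 3. Melanoma replicate 4 therefore stood alone in its block and added nothing to the changes of that fit. No libraries agreed within counting noise (smallest chi-square per degree of freedom 127.4).

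Symbols came from a table naming 19599 of the identifiers, matched without the paralog letter where needed. Genes kept by filterByExpr were tested with edgeR 4.0.16 in R 4.3.3 (quasi-likelihood F test with a model of group alone). TMM factors were 0.467 to 0.874 in scale libraries and 1.37 to 1.67 in melanoma. SE, an approximation, is the change over the root of F. Alternatives used DESeq2 1.42.0, limma 3.58.1 (voom), other scalings and filters, a replicate block, and fewer libraries. Full values are given for the 2 members of each role with the smallest adjusted p and for those that fell or did not pass, and pcna was added with its values known. In each related list, up to 2 risen and 2 fallen rows are named by adjusted p. Further inhibitor rows of the cell cycle entry list were added with their values known. Members, lists and tests were chosen with earlier results of these data known. Levels per coding length were planned but not computed, since no lengths were at hand.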

Additional observations from a re-analysis of the deposited data

Results flagged for a closer look

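Each of 84 sets of 4 values (42 rows in 2 groups) was checked for a library far from the other 3, on log2(CPM + 0.5) with Dixon's critical value at 95%. Chance alone marks about 1 such set in 20, and 5 were found. In melanoma, replicate 1 was the low library in 4 of them: pcna at 27.0 CPM, orc5 at 4.55 CPM, cdt1 at 4.19 CPM and pole at 2.26 CPM. The other melanoma libraries were at 257 to 336 CPM, 17.1 to 21.8 CPM, 22.1 to 29.2 CPM and 13.7 to 16.7 CPM for these genes. In the scale libraries, cdc7 was low in the second column of replicate 3, at 0.168 CPM (8 reads), against 0.667 to 0.80 CPM in the others.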

How the results depend on the processing

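Of the 33 replication rows that rose, 23 kept their call at an adjusted p of 0.05 in every alternative fit that tested them, and 24 did when each library was left out in turn. Those lost somewhere were pcna, orc6, cdc45, gins1, gins3, gins4, pola1, rfc4, rfc5 and rpa1. Rows called higher numbered 26 to 35 over the 8 fits without 1 library, 28 with limma-voom and 24 at an adjusted p of 0.01. They numbered 22 with a filter of 5 CPM in 4 libraries, which left some rows untested. The row called lower (1 in each of those 8 fits) numbered 0 with total counts and 2 without the 2 less complex libraries and melanoma replicate 1. Rows without overlap were 22 to 36 above and 1 to 2 below over the same 8, 2 below without the 2 less complex libraries, and 38 above and 2 below when melanoma replicate 1 was left out with them. With fewer libraries such counts can only stay or rise, and no share over all genes was computed for these sets. Over all genes, 3272 were higher with the 5 CPM filter, which tested fewer of them, against 5799 in the main fit. With total counts 10873 were higher and 1778 lower, and 3565 and 2412 at an adjusted p of 0.01, against 5799 and 4056. Over the 8 fits these ran from 3981 to 5822 and from 3188 to 4653.

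Signs turned for gmnn with upper quartile scaling (-0.20), the 5 CPM filter (-0.34), without scale replicate 1 (-0.041, against 1.05 without the 2 less complex libraries and melanoma replicate 1) and without the first column of replicate 3 (-0.16), and with total counts for mcm6 row ENSDARG00000033231 (0.16) and impdh2 (0.18). The median of all genes moved as well, from 0.05 to 1.17 with total counts and to -0.39 with upper quartile scaling. The turns under these 2 scalings were therefore not particular to those rows. The cause of the other turns was not tested. With the replicate number as a block, 26 rows rose and 1 fell, and the change of mcm3 was 3.90. The labels do not say that a number marks a shared source. Deviations correlated at -0.0186 for replicates 1, 0.107 for replicates 2, and 0.172 or -0.152 for replicate 3. Pairs of unlike number reached similar values, with scale replicates 1 and 2 at 0.158 and -0.102 against melanoma replicate 3. These values therefore cannot tell whether a number marks a shared source. Rows with few reads, such as pold2, prim1 and mcm10 in the less complex libraries, are the least precise.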
